A study of Mus musculus with 8 samples.

Results

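Map2k3 and 8 other genes of the MAP kinase cascade were followed in mouse aortic smooth muscle cells given a moR-21 mimetic. The genes were Map3k1, Map2k1, Map2k2, Map2k3, Map2k4, Map2k7, Mapk3, Mapk14 and Mapkapk2, and all probes carrying these symbols were taken, which gave 13 of the 25697 probes and 9 of the 18138 gene symbols of the array. They were picked with the differences between treatments in these samples already known, so the differences are given for these genes as a description, without a test. The primary cells had grown out of pieces of several mouse aortas, and both groups were transfected with RNAiMAX, and the labels give the RNA as the difference between them. The 3 control samples received a scrambled oligonucleotide and the 3 moR-21 samples the moR-21 mimetic, each at 5 nM, and RNA was taken after 48 h. The labels call the samples triplicates but do not say whether they were separate cultures, so the p-values given for other genes measure the spread between these samples, which may be technical.

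MAP kinase cascades pass a signal through a chain of kinases, in which a MAP3K phosphorylates a MAP2K and the MAP2K phosphorylates a MAPK. The MAP2K tier sets the branch, since Map2k1 and Map2k2 act on the ERK kinases, Map2k3 and Map2k6 on the p38 kinases, Map2k7 on the JNK kinases, and Map2k4 on JNK and p38 kinases. In vascular smooth muscle these branches are known for their part in growth factor, stress and cytokine responses.

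The RNAs that the treatment concerns come from the 5′ arm of the Mir21a hairpin, on the minus strand of chromosome 11. A moR is a small RNA cut from the primary transcript next to a microRNA, and moR-21 lies directly 5′ of miR-21a-5p. The study lists Map2k3 and Map3k1 among the predicted targets of miR-21, so the microRNA is shown beside the flank that moR-21 comes from. The sequences are those of RefSeq, GRCm38.p6, written 5′ to 3′, the flank at chr11:86584142-86584158 and the microRNA at chr11:86584120-86584141. Capitals mark bases 2 to 6 of the flank and the seed, bases 2 to 8, of the microRNA. The marked bases of the flank lie in the stretch that the study's moR-21 sponge pairs with. In the study they are the region shared by the candidate moR-21 seed sequences with the most down-regulated predicted targets. Mimetics that the study mutated in this region had no significant effect on a Txndc5 reporter. Of the target mRNAs it measured in smooth muscle cells, most were not regulated by the mutated mimetics, but each of these still regulated a few.
Mir21a hairpin, 5′ flank of miR-21a-5p: uGUACCaccuugucgga
mmu-miR-21a-5p: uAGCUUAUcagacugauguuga
The 17 bases of the flank are those inside the annotated hairpin, and the ends of the mimetic were not used here.

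Each sample was read on Illumina bead arrays. Control sample 1 and moR-21 sample 3 had 2 arrays each, so 8 arrays stood for 6 samples, and the pair was averaged. Median intensities ran from 102.5 to 109.2 on the control arrays and from 103.5 to 106.7 on the moR-21 arrays, and 10285 to 10512 probes were detected per array at a detection p-value under 0.01. The paired arrays differed on the 13 probes by at most 0.16 on the log2 scale. Signals are log2 of the quantile normalized intensity, and a fold change is the moR-21 mean minus the control mean on that scale, with its standard error (SE) and 95% interval from limma. For each gene the brightest of its detected probes was taken, and the gene was called at a fold change over 1.3, a log2 change of 0.38, with an adjusted p under 0.002. Of the smooth muscle markers looked up, 7 of 9 on the array were detected on 1 or more arrays, among them Acta2. Tagln was detected on 4 of the 8 arrays and Lmod1 on 3, while Cnn1 and Myh11 were detected on no array. One label field names aortic endothelial cells in place of smooth muscle cells, and 9 of 10 endothelial markers, Cdh5, Pecam1 and Kdr among them, were detected on no array.

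Map2k3 and Map2k4 had the higher signal in every moR-21 sample, Map2k4 by nearly 1 log2 unit, and Mapkapk2 was higher by a smaller margin. Map3k1 of the tier above, and Mapk14 and Mapk3 of the tier below, had overlapping groups and intervals that included 0. Map2k1 was detected on no array. In RNA from whole cultures a gene's lower level in each cell cannot be told apart from fewer cells that express it, and the same holds for a higher level. Of the 8 detected genes 2 were called, both higher, beside 7.79% of the 8727 detected genes of the array called in either direction and 3.41% called higher. The groups did not overlap for 3 of the 8, each with the moR-21 samples above, beside 46.3% of all detected genes not overlapping and 24.4% with the moR-21 samples above. Since the genes were chosen on this contrast, nothing is read from either share. Their median log2 fold change was 0.09, beside 0.01 over all detected genes.

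**Figure D1:**
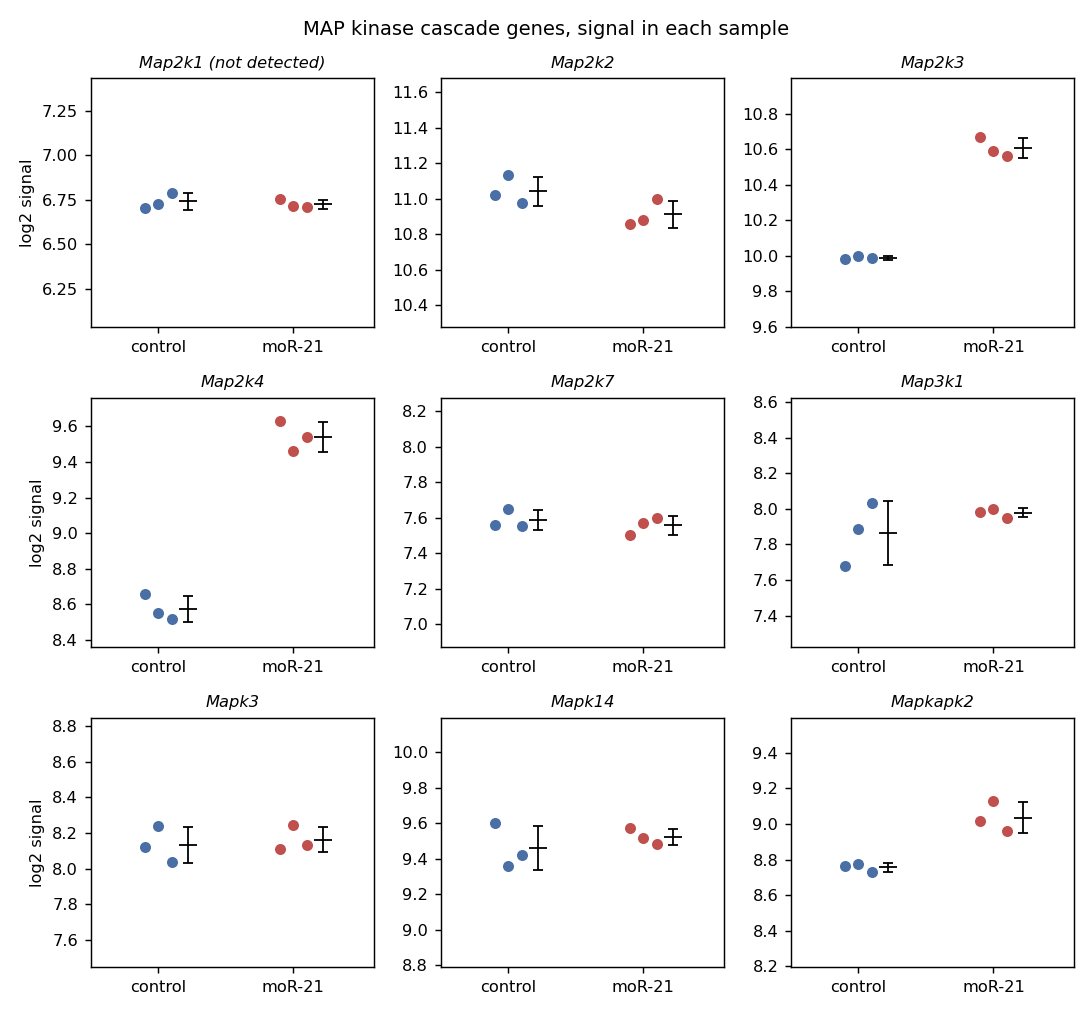
Signal of the 9 MAP kinase cascade genes at the brightest probe, as log2 of the normalized intensity, in the 3 control samples (blue) and the 3 moR-21 samples (red), with the mean and SD beside the points. Each panel has its own axis, and the groups stand apart for Map2k3, Map2k4 and Mapkapk2.

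Map2k3 encodes MKK3, the dual-specificity kinase that activates p38, and lies at chr11:60932054-60952811. Its probe read 9.98, 10.00 and 9.99 in control samples 1 to 3 and 10.67, 10.59 and 10.56 in moR-21 samples 1 to 3. Every moR-21 sample lay above every control, and the SD was 0.0089 in the controls and 0.055 in the moR-21 samples. The log2 fold change was 0.62 (SE 0.047, 95% interval 0.52 to 0.72), or 1.54-fold, and 0.642% of the detected genes had a larger rise. The separation was present before normalization, with intensities of 943 to 1143 on the 4 control arrays and 1423 to 1680 on the 4 moR-21 arrays. Paired arrays of the same sample read 9.99 and 9.97 for control sample 1, and 10.59 and 10.54 for moR-21 sample 3.

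Map2k4 encodes MKK4, which activates JNK and p38 kinases, and lies at chr11:65688244-65788359. It read 8.66, 8.55 and 8.52 in the controls and 9.63, 9.46 and 9.54 in the moR-21 samples, with no overlap. Its log2 fold change of 0.97 (SE 0.055, 95% interval 0.85 to 1.09), a 1.96-fold difference, was the largest of the 9 genes, and it stood at place 13 among the 8727 detected genes ordered from the largest rise, where Map2k3 stood at place 57. Before normalization it measured 343 to 471 on the control arrays and 669 to 810 on the moR-21 arrays. The array holds a single probe for Map2k3 and for Map2k4, so no further probe bears on either value.

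The remaining MAP2K genes had no such difference. Map2k2, which encodes the ERK activator MEK2 and lies at chr10:81105913-81124697, read 11.02, 11.13 and 10.97 in the controls and 10.86, 10.88 and 11.00 in the moR-21 samples. The highest moR-21 sample of Map2k2 lay above the lowest control, and the log2 fold change was -0.13 (SE 0.055, 95% interval -0.25 to -0.01). Its dimmer probe, also detected on all 8 arrays, gave -0.01 (SE 0.047). Map2k7, which encodes the JNK activator MKK7 and lies at chr8:4238740-4247897, read 7.56, 7.65 and 7.55 against 7.50, 7.57 and 7.60, a log2 fold change of -0.03 (SE 0.049, 95% interval -0.14 to 0.07). A dimmer Map2k7 probe was detected on 1 of 8 arrays and gave 0.06 (SE 0.045), with the moR-21 samples above the controls, and another was detected on none. Map2k1 encodes MEK1, the partner of MEK2 in the ERK branch, and lies at chr9:64185769-64253605. Its probe read 6.70, 6.73 and 6.79 against 6.75, 6.71 and 6.71 with 0 of 8 arrays detected, so these values carry no level of Map2k1.

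Among the genes upstream and downstream of the MAP2K tier, the groups overlapped for Map3k1, Mapk3 and Mapk14. Map3k1 encodes MEKK1, a kinase that can activate the JNK branch, and lies at chr13:111746428-111818269. Its controls read 7.68, 7.89 and 8.04, the widest spread of the 9 genes, and its moR-21 samples 7.98, 8.0 and 7.95. The log2 fold change of Map3k1 was 0.11 (SE 0.071, 95% interval -0.04 to 0.27), and it ranged from 0.02 without control sample 1 to 0.20 without control sample 3, so its size moved with the control left out. Mapk14 encodes p38 alpha, the kinase that MKK3 activates, and lies at chr17:28691342-28748405. It read 9.60, 9.36 and 9.42 against 9.57, 9.52 and 9.48, a log2 fold change of 0.07 (SE 0.060, 95% interval -0.06 to 0.19). It ranged from 0.01 without control sample 2 to 0.14 without control sample 1. Mapk3 encodes ERK1 and lies at chr7:126759626-126765816. It read 8.12, 8.24 and 8.04 against 8.11, 8.24 and 8.13, and both of its probes gave a log2 fold change of 0.03, with SE 0.058 and 0.048.

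Mapkapk2 encodes MK2, a kinase that p38 activates and that acts on mRNA stability and on heat shock protein 27, and lies at chr1:131053700-131097871. It read 8.77, 8.78 and 8.73 in the controls and 9.02, 9.13 and 8.96 in the moR-21 samples. The groups did not overlap, and the log2 fold change of 0.28 (SE 0.052, 95% interval 0.17 to 0.39) is 1.21-fold, below the 1.3-fold that a call needed.

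**Figure D2:**
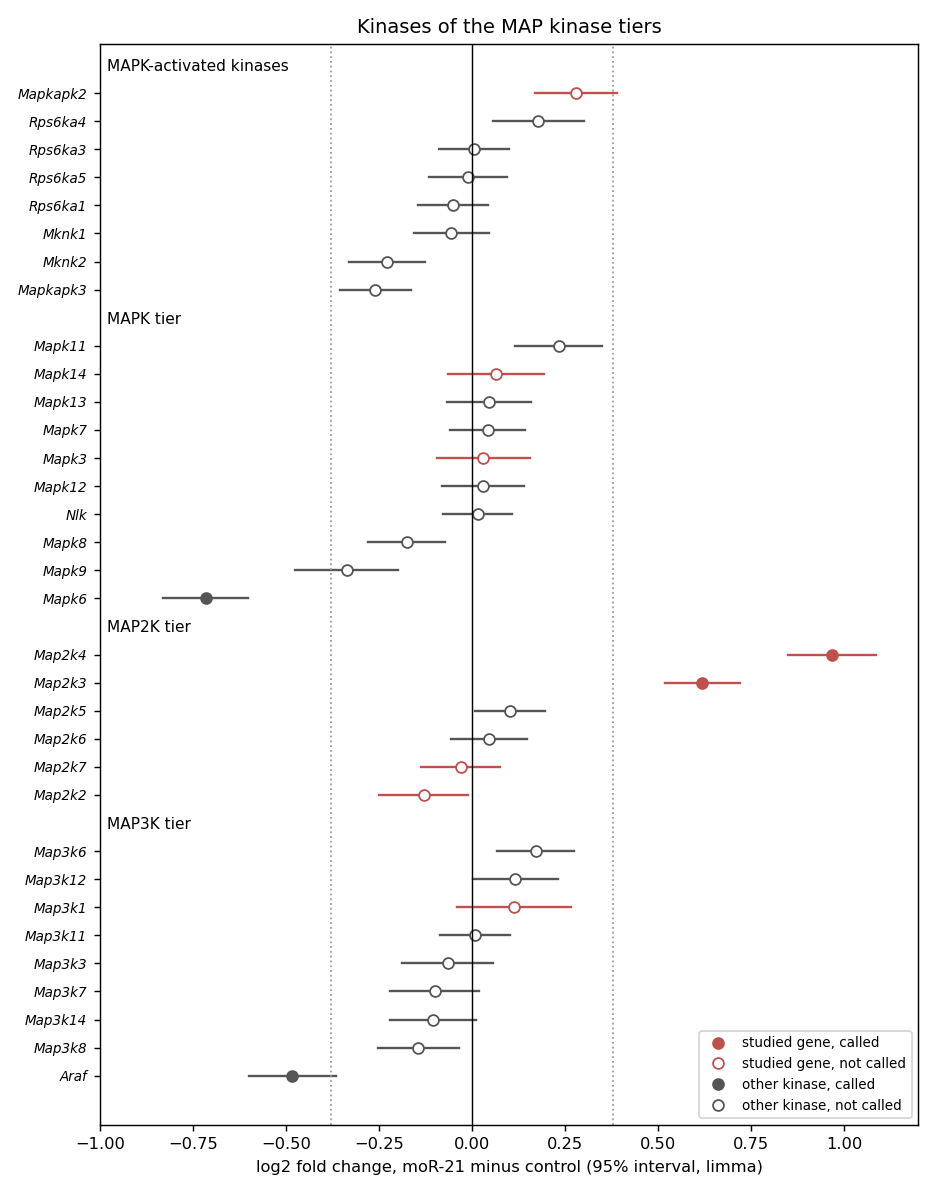
Log2 fold change, moR-21 minus control, with its 95% limma interval for detected kinases of each tier, the 8 detected genes described above in red and the other kinases in grey, filled where called. The dotted lines mark the 1.3-fold cutoff, and the called kinases are Map2k4 and Map2k3 above it and Mapk6 and Araf below it.

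The other genes of the pathway were read from lists of kinases, phosphatases, scaffolds, Ras regulators and targets that hold 155 symbols. Of these 125 were on the array and 93 were detected. None was called higher by limma and 7 were called lower, 7.53% of the 93, beside 4.38% of all detected genes called lower and 3.41% called higher. At an unadjusted p under 0.05, 22 of the 93 (23.7%) were higher and 29 (31.2%) lower, beside 23.4% and 21.1% of all detected genes. Other settings called from 0 to 3 of the 93 higher. Their median log2 fold change was -0.05.

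Of the other MAP2K genes, which complete the tier of Map2k3 and Map2k4, neither was called. Map2k6, encoding the other p38 activator MKK6, was detected on 3 arrays and gave 0.05 (SE 0.048, limma adjusted p = 0.512). Map2k5, encoding the activator of ERK5, gave 0.10 (SE 0.044, limma adjusted p = 0.0931). The whole tier thus held log2 fold changes from -0.13 to 0.97 over its 6 detected genes, and Map2k3 and Map2k4 alone lay past the cutoff.

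The JNK kinases, on which MKK4 and MKK7 act, had lower values. Mapk8, encoding JNK1, read 7.91, 7.90 and 7.86 against 7.78, 7.70 and 7.66, a log2 fold change of -0.18 (SE 0.048, limma adjusted p = 0.0116), with no overlap between the groups but not called. Mapk9, encoding JNK2, gave -0.34 (SE 0.064, limma adjusted p = 0.00103), short of the 1.3-fold cutoff, and its dimmer probes gave -0.10 and -0.01. Mapk10, encoding JNK3, was detected on no array. Both detected JNK genes thus had differences of the opposite sign to that of Map2k4, and neither was called.

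The other p38 kinases were not called either. Mapk11, encoding p38 beta, read 7.31, 7.41 and 7.19 against 7.54, 7.52 and 7.55, a log2 fold change of 0.23 (SE 0.055, limma adjusted p = 0.00438). Mapk12 and Mapk13, encoding p38 gamma and p38 delta, gave 0.03 (limma adjusted p = 0.706) and 0.05 (limma adjusted p = 0.550). With background correction Mapk11 gave 0.41 (SE 0.097), still not called. Of the 4 p38 genes, Mapk11 alone had groups that did not overlap, beside 46.3% of all detected genes.

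In the ERK branch Araf, a RAF kinase that feeds MEK1 and MEK2, was called lower. It read 10.42, 10.48 and 10.30 against 9.90, 9.87 and 9.98, a log2 fold change of -0.48 (SE 0.054, limma adjusted p = 1.17e-05), and its dimmer probe gave -0.29 and was not called. The difference of Map2k2, the MAP2K gene of this branch that was detected, was -0.13 and not called.

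Among atypical and other MAP kinases Mapk6, which encodes ERK3, fell most of the 93 genes. It read 8.05, 8.13 and 7.98 in the controls and 7.39, 7.27 and 7.35 in the moR-21 samples, a log2 fold change of -0.72 (SE 0.053, limma adjusted p = 2.23e-07) or 1.64-fold lower, and -1.12 with background correction. A dimmer Mapk6 probe was also called lower, at -0.55, and another, detected on 1 array, gave -0.03. Mapk7, encoding ERK5, and Nlk were detected on 1 array each and gave 0.04 (limma adjusted p = 0.553) and 0.01 (limma adjusted p = 0.837). Mapk4 and Mapk15 were detected on no array.

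**Figure D3:**
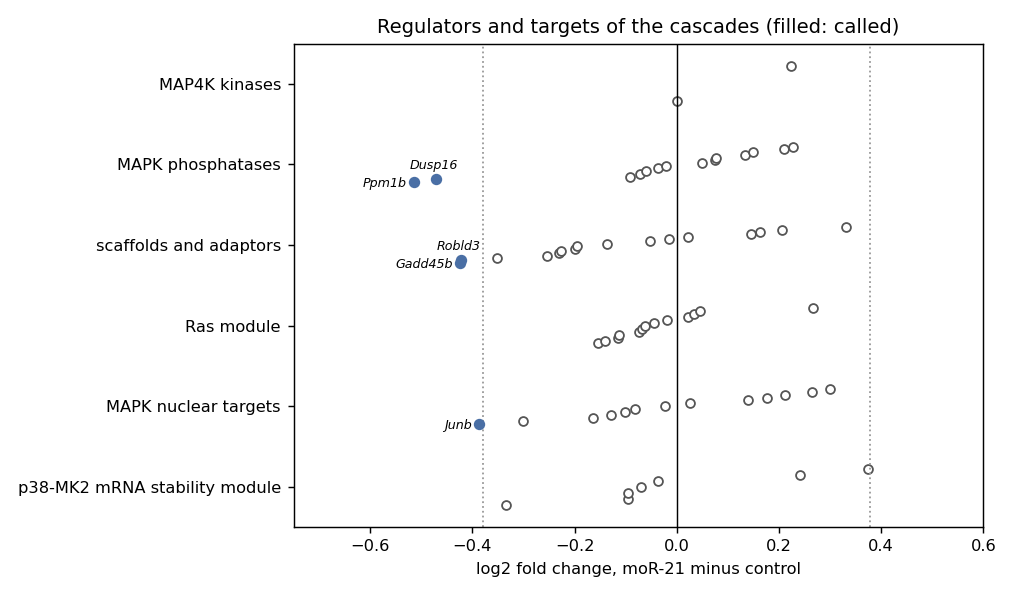
Log2 fold change, moR-21 minus control, of detected regulators and targets of the cascades, 1 point per gene at its brightest detected probe, filled where called. The dotted lines mark the 1.3-fold cutoff, and the 5 called genes, Ppm1b, Dusp16, Gadd45b, Robld3 and Junb, lie on the lower side.

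The remaining called genes act on the kinases or follow them. Of 14 detected MAPK phosphatases 2 (14.3%) were called lower, beside 4.38% of all detected genes. Ppm1b, a protein phosphatase known to act on TAK1 signaling, read 9.57, 9.47 and 9.49 against 9.01, 8.94 and 9.03, a log2 fold change of -0.52 (SE 0.049, limma adjusted p = 2.22e-06), while its other probes gave -0.46, also called, and -0.05, not called. Dusp16, a phosphatase with a preference for JNK, gave -0.47 (SE 0.053, limma adjusted p = 1.21e-05), and its dimmer probe gave -0.16 and was not called. Dusp1 and Dusp6, phosphatases induced by p38 and ERK signaling, gave -0.09 and -0.02 and were not called. Dusp4 gave 0.23 (SE 0.046, limma adjusted p = 0.00149) and Dusp3 0.21 (SE 0.045, limma adjusted p = 0.00224), neither called. Of the 14 phosphatases, 4 had the moR-21 samples above all controls and 2 below, beside 2127 and 1912 of all 8727 detected genes. The median log2 fold change of the 14 was 0.01. Dusp1, Dusp3, Dusp4 and Dusp6 were chosen for mention after their values were seen.

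Of 16 detected scaffolds and adaptors 2 (12.5%) were called lower, beside 4.38% of all detected genes. Gadd45b, a stress protein that binds MAP3K4 and MKK7, gave -0.43 (SE 0.055, limma adjusted p = 3.90e-05), and -0.67 with background correction. Robld3, now named Lamtor2, a late endosome adaptor for MEK1 and ERK, gave -0.42 (SE 0.065, limma adjusted p = 1.70e-04), -0.34 and no call without control sample 3, and -0.90 with background correction. Gadd45a, of the same family as Gadd45b, gave 0.33 at its brightest probe, the largest rise of the 16 and not called. A dimmer Gadd45a probe gave 0.41 and was called higher, so members of that family differed in sign. Of the 16 genes, 5 had a positive and 11 a negative log2 fold change, with a median of -0.17. The moR-21 samples lay above all controls for 3 and below for 9, beside 2127 and 1912 of all 8727 detected genes.

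Of 14 detected nuclear targets 1 (7.14%) was called, beside 7.79% of all detected genes. This gene was Junb, a subunit of AP-1. It read 8.05, 8.22 and 8.01 against 7.74, 7.75 and 7.63, a log2 fold change of -0.39 (SE 0.060, limma adjusted p = 1.85e-04), close to the cutoff, and it was no longer called without control sample 2, where it gave -0.32, or without moR-21 sample 3, where it gave -0.35. Jun, another AP-1 subunit and a JNK substrate, gave 0.30 (SE 0.052, limma adjusted p = 4.69e-04) and Egr1, an immediate early gene of the ERK branch, -0.30 (SE 0.051, limma adjusted p = 3.93e-04), both short of the fold cutoff. Of the 7 detected genes of the module around p38 and MK2 none was called by limma, with 2 higher and 1 lower at an unadjusted p under 0.05, the cutoff that 23.4% of all detected genes passed as higher and 21.1% as lower. Cxcl1, a chemokine whose mRNA that module stabilizes, gave 0.37 (SE 0.053, limma adjusted p = 9.04e-05), just under the cutoff. It had the highest value of the 7. Hspb1, listed in the same module, had the lowest, at -0.33 (SE 0.071, limma adjusted p = 0.00216). Of the 7 genes, 2 had a positive and 5 a negative log2 fold change, with a median of -0.07. Il6, Tnf and Ptgs2 of the module were detected on no array. Mapkapk3, the close relative of Mapkapk2, gave -0.26 (SE 0.045, limma adjusted p = 4.72e-04), of opposite sign to the 0.28 of Mapkapk2 and also short of the fold cutoff. Jun, Egr1, Cxcl1, Hspb1, Gadd45a and Mapkapk3 were chosen for mention after their values were seen.

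Markers of other cell types also differed between the groups. The summed linear signal of the mesothelial markers ran from 770.9 to 779.6 in the controls and from 402.4 to 415.7 in the moR-21 samples, with 1 of 2 detected markers, Upk3b, called lower (log2 fold change -1.24). Msln, Krt8 and Krt18 were detected on no array, and Wt1 had no probe. The summed fibroblast markers ran from 16700 to 17500 and from 13910 to 14980, with Lum called lower (-0.56) of 5 detected and Dpt detected on no array. The summed macrophage markers ran from 1622 to 1688 and from 1465 to 1498, with Lyz2 called higher (0.48) of 3 detected. Cd14 gave -0.27 (limma adjusted p = 3.38e-04) and was not called. Ptprc, Itgam, Emr1, Cd68, Fcgr3 and Lyzs were detected on no array. The summed smooth muscle markers ran from 10630 to 10990 and from 13400 to 14270, with Acta2, the brightest of them, called higher (0.40). Des gave -0.38 (limma adjusted p = 8.60e-05) and was not called, and the median of the 7 detected was 0.04. The summed endothelial markers ran from 117.1 to 120.2 and from 118.5 to 126.5, with Vwf alone detected and not called. Their part in the values of Map2k3, Map2k4 and the other genes was not tested.

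The probes whose signal followed that of Map2k3 most closely over the 6 samples were those of Fscn1, Serpina3n, Hebp1, Crip2 and Dlgap4, each with a Pearson r of 0.998. For Map2k4 they were those of Gpd2 and Hsd17b7 (r of 0.999), Clpx and 1500010J02Rik (0.998) and Ppap2b (0.997). These correlations are dominated by the step between the groups, and 707 of 11650 probes had an r over 0.95 with Map2k3 and 635 with Map2k4, so they describe a shared step over 3 and 3 samples. Dlgap4 and Clpx were not called, and the other 8 genes were called higher.

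Since Map2k3 and Map2k4 were higher together, their promoter windows, 250 bases before to 50 after each annotated start, were searched on both strands for 4 motifs. The RefSeq table holds windows for 8 of the 9 genes, and Mapk3 was not matched. The Ets core CCGGAA was found for Map2k1, Map2k3, Map2k4 and Mapk14, 4 of 8 genes, beside 16.7% of all 27025 genes with a window. The matches of Map2k3 and Map2k4 are shown with the motif, or its reverse complement, in capitals, on the strand of the gene, the former at chr11:60931910-60931933 on the plus strand and the latter at chr11:65745865-65745888 on the minus strand, GRCm38.p6.
Map2k3: tgggttggaTTCCGGctcttggag
Map2k4: tggaaatttCCGGAAttaacagag
The Map2k4 match lies in the window of an internal alternative start, not in that of the gene's outermost start, and the match on the other strand overlaps it. The Mapk14 match also lies only in the window of a start downstream of the outermost. A gene was counted when any of its windows held a match, and so were all genes with a window. The GC box GGGCGG was found for 7 of 8 genes, all but Map2k4, beside 38.2% of all genes, and the AP-1 site TGANTCA for Map2k7 alone, beside 8.97%. That Map2k7 match lies only in the window of its downstream start. The only Map3k1 window, chr13:111808944-111809243, is also that of a start inside the gene, and it holds the GC boxes counted for Map3k1. The cAMP response element TGACGTCA was found in none of the 8, beside 2.03% of all genes. These matches are of letters, and no binding was measured.

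**Figure D4:**
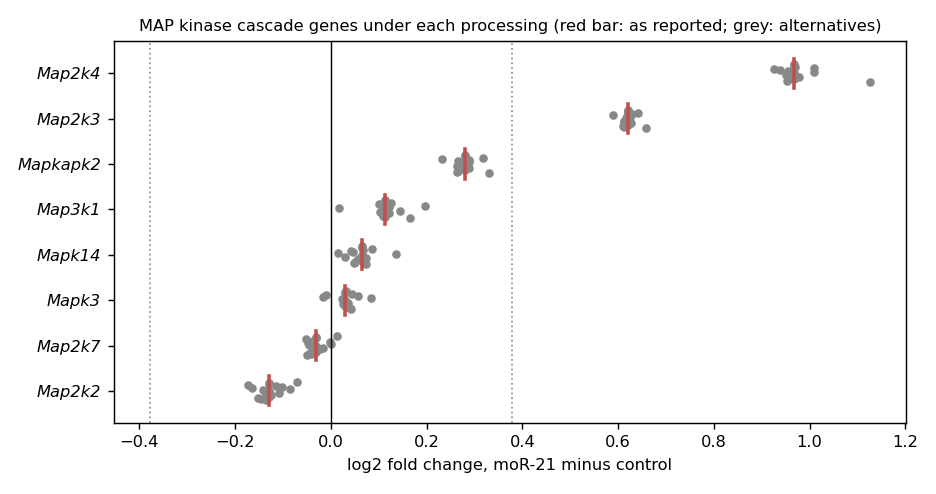
Log2 fold change, moR-21 minus control, of the 8 detected MAP kinase cascade genes as reported (red bar) and under 19 other ways of processing the arrays (grey points), with the 1.3-fold cutoff dotted. Map2k3 stays between 0.59 and 0.66 and Map2k4 between 0.92 and 1.13, and no other gene of the 8 passes the cutoff.

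Map2k3 and Map2k4 were called under every processing tried. The genes were chosen on this contrast in these same samples, so the calls describe the effect of processing and are no test of the genes. Over 19 alternatives the log2 fold change of Map2k3 ran from 0.59, without moR-21 sample 1, to 0.66, with background correction, and that of Map2k4 from 0.92, without moR-21 sample 1, to 1.13, with background correction. Mapkapk2 ran from 0.23 to 0.33 and was called under none of them. Mapk3 and Map2k7 each took the other sign under 2 alternatives, and neither was called under any.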

How the data were processed

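Total RNA was hybridized to Illumina mouse expression BeadChips. The authors deposited non-normalized probe intensities with a detection p-value per probe and array. No background correction or filter is given in the sources used here. The columns were matched to samples by name. Quantile normalization over the 8 arrays was followed by log2 transformation and by averaging of the arrays of each sample. Probes detected on 1 or more arrays (detection p-value below 0.01), 11651 in all, entered a limma 3.58.1 fit (lmFit, eBayes) in R 4.3.3 that compared the groups. P-values were adjusted by Benjamini and Hochberg over these probes. Calls used the study's cutoffs. No covariate was fitted. The number of arrays limits the precision, and no slide is named.

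The genes described and the gene and marker lists were chosen with earlier results of these data known. Genes named were these 9, other list genes called at the brightest detected probe, the MAP2K and MAPK kinases on the array (some genes are not reported here), and the 5 probes most correlated with Map2k3 and with Map2k4. Any others are marked as chosen after their values were seen. Sequences and positions are those of RefSeq GRCm38.p6, and protein sequences were not used here. Tests were first tried on simulated data. The alternatives were normexp background correction (offset 16), median scaling, cyclic loess, detection on all arrays or no filter, array A or B alone, duplicateCorrelation over all arrays, eBayes with trend and robust, a replicate block, each sample left out, an adjusted p under 0.05, a fold change over 1.5 and the mean of a gene's detected probes.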

Additional observations from a re-analysis of the deposited data

How the results depend on the processing

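Map2k3 and Map2k4 were the called genes of the 9 under all 19 alternatives. All of these use the samples on which the 9 genes were chosen, so nothing beyond the effect of processing is read from them. Of the other pathway genes, 7 were called as reported, 12 with normexp background correction and 1 (Mapk6) with a fold change over 1.5, which also left 1 called lower. With a sample left out, 6 to 10 were called, of which 6 to 9 were lower and 0 to 1 higher. None of the 93 was called higher as reported, whereas 3 were with normexp (Dusp3, Dusp4 and Jun), and 1, Cxcl1, was with median scaling, cyclic loess, array A alone, duplicateCorrelation, and without control sample 1 or moR-21 sample 1. The call of Junb was also lost with array B alone, and those of Dusp16 (-0.31) and Ppm1b (-0.34) with the mean of all detected probes. Mapk9 (-0.41) was among those called lower without moR-21 sample 1, Traf6 without moR-21 sample 3 and with normexp, Traf2 with normexp, and Hspb1 with array A alone and without control sample 3. Dusp3, Dusp4, Hspb1, Traf2 and Traf6 were chosen for mention after their values were seen. The cause was not tested. Over all probes 811 were called as reported, 1180 with normexp, 260 with a fold change over 1.5, and 748 to 851 under the other alternatives that test probes. The deviations of same-numbered samples correlated at 0.19, 0.04 and 0.06, so the numbers were not taken to pair the samples. The replicate block called 2 of the 9 genes and 7 other pathway genes, 0 higher and 7 lower, and 815 probes. The array reads Map2k1 as not detected and Map2k3 and Map2k4 at 1 probe each, so a change there could not be seen for Map2k1 or checked on another probe for Map2k3 and Map2k4.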
